A study of Mus musculus with 12 samples.

Results

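The genes described here mark the steps by which new granule neurons are made in the adult dentate gyrus. They are 33 gene symbols among 24421 genes in the count table, chosen by name from knowledge of that lineage. No threshold on measured values was used, but earlier results of these data were known. Cell cycle genes were left out, except for the cyclin gene Ccnd2. All 33 symbols were found, and 29 of them were among the 13065 genes that passed a filter on low counts and were tested. By stage, 8 were listed as markers of neural stem cells (Sox2, Nes, Hes1, Hes5, Pax6, Hopx, Fabp7 and Lpar1), 5 of intermediate progenitors (Eomes, Neurog2, Insm1, Tfap2c and Ccnd2), 11 of neuroblasts (Neurod1, Neurod2, Sox4, Sox11, Igfbpl1, Dcx, Draxin, Tbr1, Elavl2, Elavl4 and Bhlhe22) and 9 of immature granule neurons (Prox1, Calb2, Tubb3, Stmn1, Stmn2, Ncam1, Gap43, Dpysl3 and Sema3c). No member passed the adjusted threshold in any of 6 genotype comparisons by edgeR. Hes1 was the member for which every other library lay above WT, by a narrow gap. The member with the smallest p-value in both comparisons of 5xFAD/p75NTRko-labelled libraries with a single mutant was Lpar1. Tbr1, Stmn1, Tubb3 and Elavl4 were highest in the same 3 libraries, from WT and 5xFAD/p75NTRko.

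The libraries were made from hippocampus of 2-month-old mice that had all received BrdU, a thymidine analogue that is built into the DNA of dividing cells. There were 12 libraries, 3 from each of 4 genotypes: WT mice, 5xFAD mice, p75NTRko mice and 5xFAD/p75NTRko mice. The 5xFAD line is a transgenic model of familial Alzheimer's disease, in which the Thy1 promoter drives the transgenes in neurons. The p75NTRko label stands for loss of the p75 neurotrophin receptor, which Ngfr encodes, and the labels give neither the allele nor whether animals were littermates or pooled. The series title places the receptor's part in adult neurogenesis in this disease model as the question. The labels call the libraries of a genotype biological replicates, and p-values measure the spread between them.

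In the adult dentate gyrus, radial glia-like stem cells in the subgranular zone are held in quiescence by Notch signals, whose effectors are the Hes genes, and by BMP signals. Activated cells become intermediate progenitors that transcribe Eomes and Neurog2, then neuroblasts that transcribe Neurod1 and Dcx, and then granule neurons that take on Prox1 and pass through a phase with Calb2 before Calb1. This lineage is a small part of the hippocampus, and many of these genes are also transcribed by other cells: Sox2, Hes5, Hopx and Fabp7 by astrocytes, Lpar1 by oligodendrocytes, and Neurod2, Bhlhe22, Ncam1, Elavl2, Stmn2, Tubb3 and Tbr1 by mature neurons. In bulk RNA, fewer cells of a type and less RNA per cell cannot be told apart.

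Sequencing depth was 4316739 to 6683613 counts in genes per library, so that 3 counts, taken as the limit of measurement, stood for 0.446 to 0.690 CPM (read counts normalised to library size). Reads came from 3′ ends, so a CPM value has no term for gene length. It counts only reads assigned to a gene, 32.2% to 38.5% of them, so levels of different genes need not rank their transcripts. Msi1, a gene of the lists used below, had 0 counts in every library, and Foxo3 had 0 to 2. Whether reads at their 3′ ends were missed was not tested, for these or for the low members. Ngfr lay between 5.95 and 10.5 CPM in the 6 libraries with p75NTRko in their label and between 0.166 and 1.95 CPM in the other 6, which is against the label. The genotypes are therefore given only as the libraries were labelled. A 3′ count does not test a deletion that leaves the 3′ end in place. Thy1, whose promoter drives the transgenes, was 1596 to 4019 CPM in the 6 libraries labelled 5xFAD or 5xFAD/p75NTRko and 688 to 939.8 CPM in the others. Xist was 359.7 to 439 CPM in all WT libraries, all 5xFAD/p75NTRko-labelled libraries and p75NTRko-labelled replicate 1, and 1.53 to 3.58 CPM in all 5xFAD libraries and p75NTRko-labelled replicates 2 and 3. Genotype and Xist class therefore cannot be told apart where 5xFAD is compared with WT or with 5xFAD/p75NTRko. WT replicate 1 and 5xFAD/p75NTRko replicate 3 also stood apart in Lamp5, a gene of neocortical and other forebrain neurons, at 71.6 and 60.3 CPM against 16.6 to 26.8 CPM elsewhere. The summed level of 10 striatal markers, led by Penk, was 217 to 275 CPM in WT and 147 to 188 CPM in the mutants, and that of 8 microglial markers, led by Cx3cr1, was 445 to 526 CPM over all libraries. All libraries carry the same batch label. Between any pair of libraries, counts differed by at least 3.03 times what counting error gives (chi-square per degree of freedom), so no library was a copy of another.

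Promoter sequence from RefSeq (GRCm38.p6) was at hand for 21 of the 33 members. It is shown here for Neurod2 and Fabp7, which had the smallest p-values in p75NTRko-labelled libraries against WT, whole up to the first annotated exon, and as short stretches for Hes5, the Notch effector, and Tbr1, which varied most within genotypes among the members above 100 CPM. Capitals mark matches, on either strand, to a Notch co-factor motif (Rbpj, TGGGAA), a neuronal E-box of the kind that Neurod factors bind (CAGATG), a Sox motif (AACAAT) and an N-box that Hes factors bind (CACNAG).
Neurod2 (chr11:98329649-98329895, minus strand, 250 to 4 bases before the start, with an E-box): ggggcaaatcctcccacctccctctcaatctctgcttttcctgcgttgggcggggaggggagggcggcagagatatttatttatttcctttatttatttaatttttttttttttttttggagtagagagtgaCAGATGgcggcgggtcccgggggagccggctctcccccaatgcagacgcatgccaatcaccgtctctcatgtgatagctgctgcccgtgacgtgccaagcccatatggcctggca
Fabp7 (chr10:57784673-57784880, plus strand, 250 to 43 bases before the start, with, in order, an Rbpj match on the opposite strand, an N-box and an E-box on the opposite strand): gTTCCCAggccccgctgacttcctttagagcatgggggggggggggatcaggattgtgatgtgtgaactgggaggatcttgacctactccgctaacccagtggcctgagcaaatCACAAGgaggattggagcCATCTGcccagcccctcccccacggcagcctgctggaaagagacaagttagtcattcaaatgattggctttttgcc
Hes5 (chr4:154960829-154960858, plus strand, 94 to 65 bases before the start, around an Rbpj match): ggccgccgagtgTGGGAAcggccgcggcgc
Tbr1 (chr2:61804345-61804374, plus strand, 108 to 79 bases before the start, around a Sox match): accccccaagccAACAATaaaatcatcccc
None of these matches overlaps another. Among all 32851 promoter windows of 250 bases in the table, 21.6% hold the Rbpj motif, 14.4% the E-box, 9.42% the Sox motif and 36.7% the N-box. In the 35 windows of the members, 4 hold the Rbpj motif (of Fabp7, Hes5, Prox1 and Sox4), 8 the E-box, 5 the Sox motif and 14 the N-box. These letters describe the windows and say nothing of binding.

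The members spanned a wide range of levels. The mean over 12 libraries ran from 0.747 CPM for Eomes to 706 CPM for Ncam1, the neural cell adhesion molecule. The 4 members left out of the tests were Eomes (0 to 16 counts), Tfap2c (0 to 14 counts), Draxin (2 to 9 counts) and Neurog2 (0 to 12 counts). Nes, which encodes the stem cell filament nestin, passed the filter at only 4 to 14 counts. Other low members were Igfbpl1, which averaged 5.82 CPM, Prox1 at 5.99 CPM and Insm1 at 8.35 CPM, while Dcx averaged 27.9 CPM. Above 100 CPM lay Ccnd2, Sox11, Tbr1, Elavl4, Bhlhe22, Neurod2, Stmn1, Elavl2, Stmn2, Tubb3 and Ncam1.

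**Figure D1:**
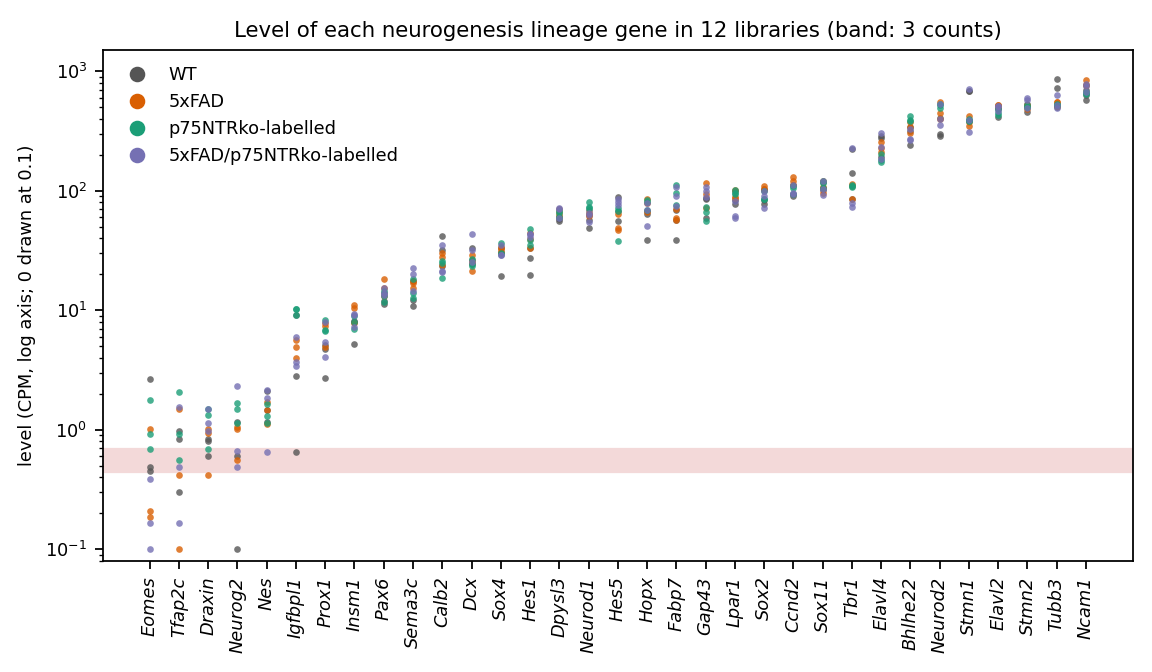
Level of each of the 33 members in 12 libraries, ordered by mean (CPM on a log axis, 1 point per library, coloured by genotype label; the band spans the CPM that 3 counts stand for in the libraries, and values of 0 are drawn at 0.1). Eomes, Tfap2c, Draxin and Neurog2 sit around the band, while Ncam1, Tubb3 and Stmn2 are the highest members by mean.

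Among the stem cell genes, the HMG-box factor Sox2 was measured at 104, 77.4 and 84.1 CPM in WT, given for replicates 1 to 3, at 102, 110.2 and 103 in 5xFAD, 85.1, 85.3 and 98.7 in those labelled p75NTRko and 98.6, 89.5 and 72.3 in those labelled 5xFAD/p75NTRko. The 5xFAD libraries were close together and overlapped the highest WT library. Nes was 2.09, 1.46 and 1.16 CPM in WT, 1.70, 1.13 and 1.47 in 5xFAD, 1.30, 1.15 and 1.64 in those labelled p75NTRko and 1.83, 2.14 and 0.656 in those labelled 5xFAD/p75NTRko. All 4 genotypes overlapped for this gene.

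Hes1, a repressor downstream of Notch (chr16:30065357-30067796, GRCm38), was 27.2, 19.8 and 33.02 CPM in WT, 33.4, 39.8 and 44.4 in 5xFAD, 38.4, 35.4 and 47.7 in those labelled p75NTRko and 43.3, 43.7 and 41.2 in those labelled 5xFAD/p75NTRko. It was the 1 member of 33 for which all 9 libraries of the mutant genotypes (33.4 to 47.7 CPM) exceeded all 3 WT libraries (19.8 to 33.02 CPM), by a narrow gap. The share of all genes with such a separation is not given here, so it cannot be called particular to Hes1. Hes5, the other Notch effector, did not share that order: it was 67.8, 88.6 and 55.6 CPM in WT, 48.7, 63.5 and 46.5 in 5xFAD, 37.6, 67.4 and 71.1 in those labelled p75NTRko and 81.1, 84.6 and 75.9 in those labelled 5xFAD/p75NTRko. The 5xFAD/p75NTRko-labelled libraries were above all single-mutant libraries and within the WT range.

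Fabp7, a fatty acid binding protein of radial glia and astrocytes (chr10:57784923-57788450), was 56.3, 38.9 and 69.2 CPM in WT, 59.3, 70.2 and 56.6 in 5xFAD, 75.3, 112 and 95.9 in those labelled p75NTRko and 108, 90.4 and 74.3 in those labelled 5xFAD/p75NTRko. Every library with p75NTRko in its label was above every library without it, with the nearest values at 74.3 and 70.2 CPM. The summed level of 10 astrocyte markers, of which Slc1a2 was the most abundant, overlapped between genotypes: 5684 to 6168 CPM in WT, 5804 to 6002 in 5xFAD, 5468 to 5957 in those labelled p75NTRko and 5351 to 6202 in those labelled 5xFAD/p75NTRko.

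Lpar1, a receptor for lysophosphatidic acid (chr4:58435252-58554027), was 84.1, 77.7 and 99.4 CPM in WT, 101, 89.0 and 86.3 in 5xFAD, 101, 93.1 and 96.5 in those labelled p75NTRko and 81.8, 61.6 and 58.7 in those labelled 5xFAD/p75NTRko. Replicates 2 and 3 of 5xFAD/p75NTRko were the lowest of all 12 libraries, and replicate 1 lay within the WT range. The summed level of 11 oligodendrocyte markers, led by Mbp, was 1661 to 2246 CPM in the 5xFAD/p75NTRko-labelled libraries, against 2422 to 2814 in p75NTRko-labelled, 2173 to 2988 in 5xFAD and 1998 to 2757 in WT libraries. The part of oligodendrocytes in Lpar1 was not tested. The other stem cell genes were Hopx, a homeodomain protein of quiescent stem cells and astrocytes, at 38.8 to 85.4 CPM, and the transcription factor Pax6, at 11.3 to 18.3 CPM.

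**Figure D2:**
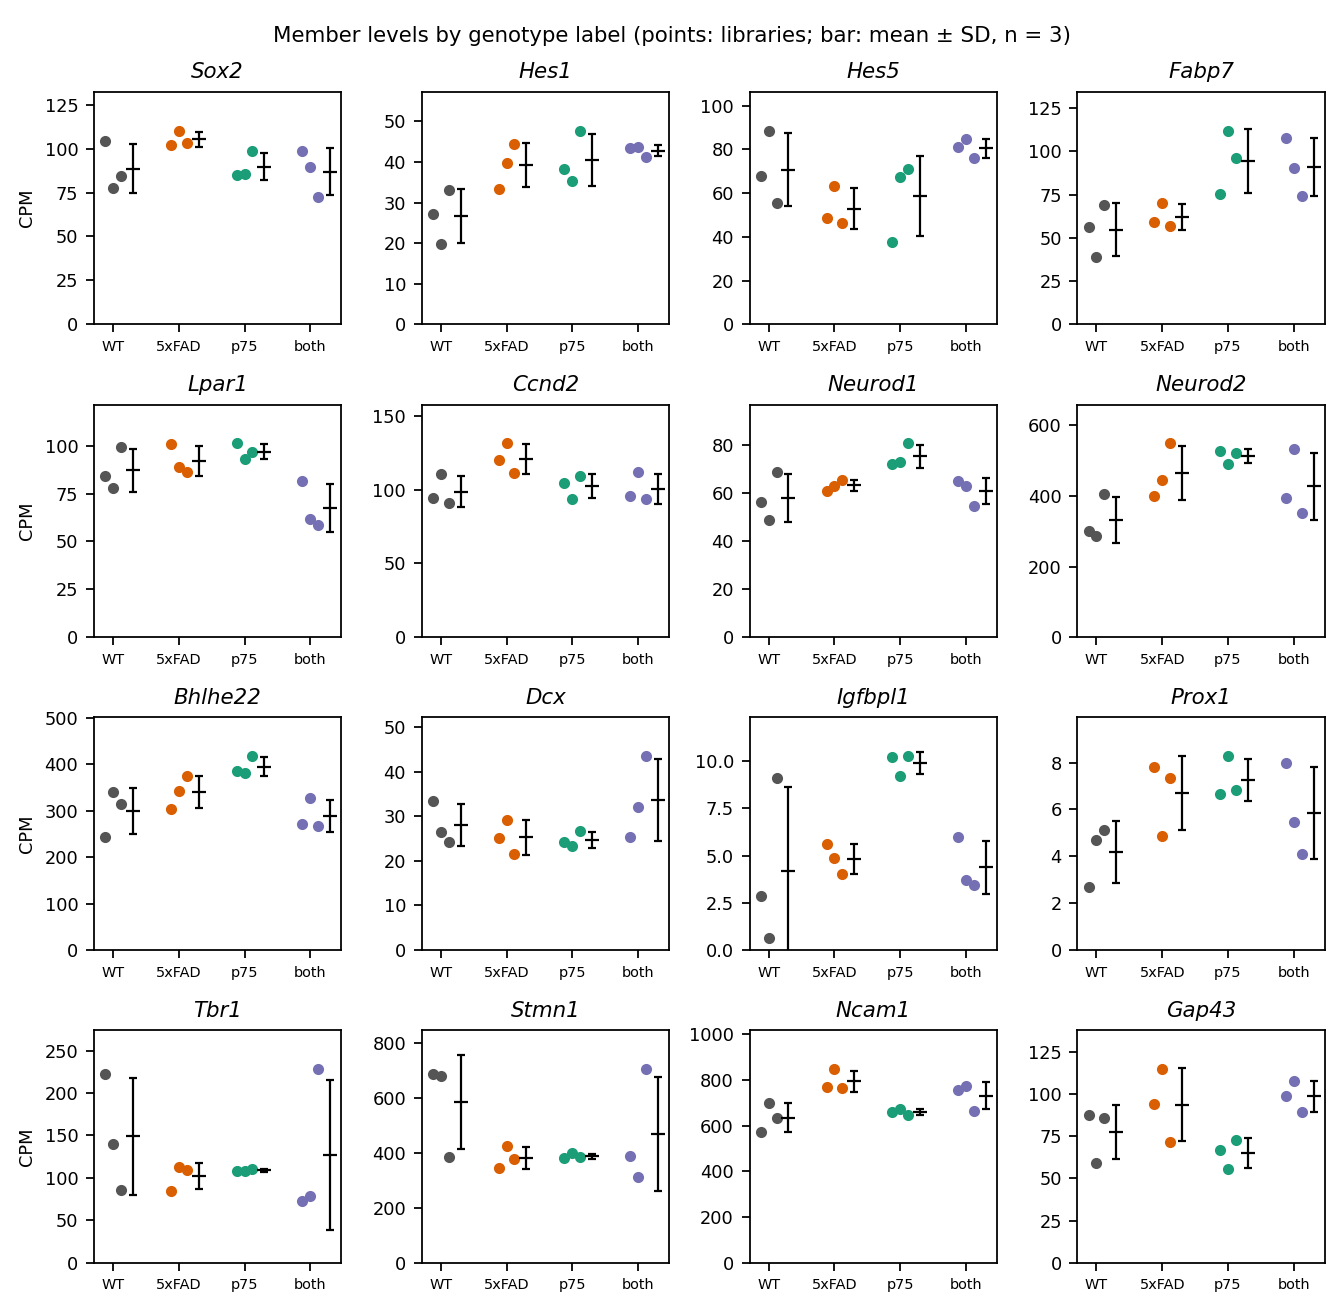
Level of 16 members in each library (CPM from 0, points, replicates 1 to 3 from left to right) with the mean and SD of each genotype label (bar, n = 3); "p75" stands for p75NTRko and "both" for 5xFAD/p75NTRko. Hes1 is lowest in WT, Fabp7 is at 74.3 CPM or more in all 6 libraries with p75NTRko in the label, and Tbr1 and Stmn1 are spread within WT and 5xFAD/p75NTRko.

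The intermediate progenitor stage was close to the limit of measurement. Eomes (Tbr2), the T-box factor that defines this stage, was 0.448, 0.487 and 2.65 CPM in WT, 1.02, 0.188 and 0.210 in 5xFAD, 0.927, 0.690 and 1.78 in those labelled p75NTRko and 0.167, 0.390 and 0 in those labelled 5xFAD/p75NTRko. In 8 of the 12 libraries it was at or under 3 counts, among them all 3 of 5xFAD/p75NTRko, where the count of 0 in replicate 3 allows up to 0.492 CPM. Eomes did not pass the filter on low counts, so the main fit gave no test of it between genotypes. The bHLH factor Neurog2 was at or under 3 counts in 3 libraries and Tfap2c (AP2 gamma) in 6. Of the 2 tested members, Insm1, a zinc finger factor of delaminating progenitors, was 5.19 to 11.04 CPM, and Ccnd2, the cyclin of dividing progenitors, was 90.8 to 131 CPM.

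Among the neuroblast genes, Neurod1, a bHLH factor needed for granule neuron survival, was 56.5, 49.0 and 69.0 CPM in WT, 61.1, 63.1 and 65.6 in 5xFAD, 72.3, 73.1 and 80.9 in those labelled p75NTRko and 65.1, 63.2 and 54.6 in those labelled 5xFAD/p75NTRko. Its relative Neurod2 (chr11:98325415-98329645) was 299, 287 and 405 CPM in WT, 401, 444 and 549 in 5xFAD, 526, 491 and 520.3 in those labelled p75NTRko and 395, 534 and 353 in those labelled 5xFAD/p75NTRko. Bhlhe22, a further bHLH factor of forebrain neurons, was 243, 339.7 and 314 CPM in WT, 304, 343 and 374 in 5xFAD, 387, 382 and 418 in those labelled p75NTRko and 271, 328 and 268 in those labelled 5xFAD/p75NTRko. For Neurod1 and Bhlhe22 the p75NTRko-labelled libraries were above all 9 others, and for Neurod2 they were above all WT libraries and overlapped the remaining genotypes.

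Dcx (doublecortin), a microtubule-associated protein of migrating neuroblasts, was 33.3, 26.5 and 24.2 CPM in WT, 25.1, 29.1 and 21.5 in 5xFAD, 24.3, 23.2 and 26.6 in those labelled p75NTRko and 25.3, 32.0 and 43.4 in those labelled 5xFAD/p75NTRko. The highest value was in 5xFAD/p75NTRko replicate 3, and all genotypes overlapped. The SoxC factor Sox11 was 106, 118 and 101 CPM in WT, 95.6, 122 and 108 in 5xFAD, 105, 115 and 120.0 in those labelled p75NTRko and 92.8, 103 and 119.5 in those labelled 5xFAD/p75NTRko, with the genotype means within 105 to 113 CPM. Sox4, the other SoxC factor, was 28.9 to 36.6 CPM in 11 libraries and 19.1 CPM in WT replicate 2.

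Igfbpl1, a secreted protein of the insulin-like growth factor binding family, was 2.84, 0.649 and 9.12 CPM in WT, 5.60, 4.88 and 3.997 in 5xFAD, 10.2, 9.20 and 10.3 in those labelled p75NTRko and 5.99, 3.70 and 3.44 in those labelled 5xFAD/p75NTRko. The p75NTRko-labelled libraries agreed closely, WT covered nearly the whole range, and WT replicate 2 held 4 counts. Ttr, the most abundant of 10 choroid plexus markers, was 1948, 2686 and 4873 CPM in WT, 1500.2, 1011 and 142 in 5xFAD, 6123, 3748 and 4377 in those labelled p75NTRko and 6027, 49.5 and 209 in those labelled 5xFAD/p75NTRko. The p75NTRko-labelled libraries and WT replicate 3, highest in Igfbpl1, were all at 3748 CPM or more in Ttr, and so was 5xFAD/p75NTRko replicate 1, at 5.99 CPM of Igfbpl1. The part of choroid plexus tissue in these values was not tested.

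Tbr1, Elavl4, Stmn1 and Tubb3 are described because of their values, outside the rule that names the others. Tbr1, a T-box factor of glutamatergic neurons, was 222, 139.7 and 85.4 CPM in WT, 85.1, 113 and 109 in 5xFAD, 108, 108 and 111 in those labelled p75NTRko and 72.9, 78.6 and 228 in those labelled 5xFAD/p75NTRko. The pair of libraries above 200 CPM is the pair that is high in Lamp5. Stmn1 (stathmin, a microtubule regulator) was 689, 683 and 387 CPM in WT and 391, 311 and 707 in 5xFAD/p75NTRko-labelled libraries, against 345 to 425 CPM in the 6 libraries of the single mutants. Tubb3, the neuronal beta tubulin, was 727, 864 and 502 CPM in WT and 526, 494 and 635 in 5xFAD/p75NTRko-labelled libraries, against 511 to 556 CPM in the single mutants. Elavl4, an RNA-binding protein of neurons, was 286, 275 and 189.8 CPM in WT and 233, 184 and 304 in 5xFAD/p75NTRko-labelled libraries. For each of these 4 genes, the 3 highest libraries were WT replicates 1 and 2 and 5xFAD/p75NTRko replicate 3. The summed level of the 9 neocortex markers did not follow them (438 to 540.2 CPM in WT, 563 to 574 in 5xFAD/p75NTRko-labelled libraries, 541 to 691 in the single mutants), and its most abundant gene, Bcl11b, was lowest in those 3 libraries, at 218, 215 and 229 CPM.

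**Figure D3:**
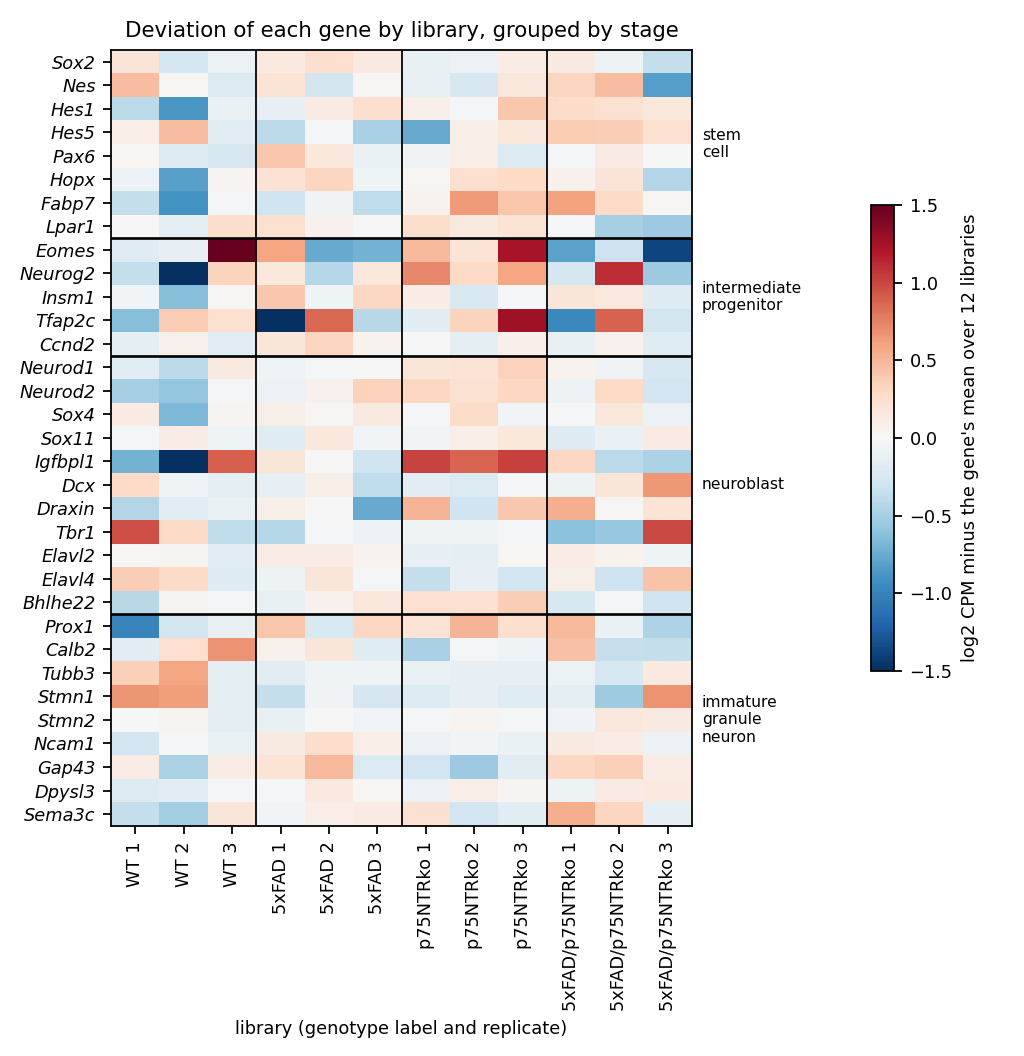
Deviation of each member from its own mean over 12 libraries (log2 CPM with a prior count of 2, colour from -1.5 to 1.5, values beyond drawn at the ends), with genes grouped by stage and libraries by genotype label. Tbr1 and Stmn1 are high in WT 1 and 5xFAD/p75NTRko 3, Igfbpl1 is high in the p75NTRko-labelled libraries and WT 3, and the strongest colours of Eomes, Neurog2 and Tfap2c stand for a few counts.

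Prox1, the homeodomain factor that fixes granule neuron identity (chr1:190118035-190170827), was 2.69, 4.71 and 5.14 CPM in WT, 7.81, 4.88 and 7.36 in 5xFAD, 6.67, 8.28 and 6.84 in those labelled p75NTRko and 7.99, 5.46 and 4.10 in those labelled 5xFAD/p75NTRko, from 18 to 48 counts. The p75NTRko-labelled libraries were above all WT libraries, and the other genotypes overlapped WT. Calb2 (calretinin), a calcium-binding protein of immature granule neurons, was 23.6, 31.8 and 41.5 CPM in WT, 27.8, 30.2 and 23.8 in 5xFAD, 18.7, 25.8 and 25.0 in those labelled p75NTRko and 35.1, 21.2 and 20.8 in those labelled 5xFAD/p75NTRko. Calb2 is also a gene of thalamic and other neurons, and its highest libraries, WT replicate 3 and 5xFAD/p75NTRko replicate 1, had the highest sums of 15 thalamus and habenula markers, led by Prkcd, at 837 and 989.8 CPM. Those sums were 561 and 801 CPM in WT replicates 1 and 2 and 319 to 442 CPM in the remaining 8 libraries. Calb2 also marks interneurons, whose 12 markers, led by Cck, summed to 1806 to 2068 CPM in WT, 1696 to 1736 in 5xFAD, 1770 to 1807 in those labelled p75NTRko and 1603 to 2050 in those labelled 5xFAD/p75NTRko. The part of thalamic tissue and of interneurons in Calb2 was not tested.

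Ncam1 (chr9:49502129-49799393) was 571, 699 and 636 CPM in WT, 771, 849 and 765 in 5xFAD, 661, 675 and 649 in those labelled p75NTRko and 755, 776 and 665 in those labelled 5xFAD/p75NTRko. The 3 libraries of 5xFAD were above all of WT. Gap43, a growth cone protein, was 87.7, 59.4 and 85.9 CPM in WT, 94.4, 115 and 71.7 in 5xFAD, 66.7, 55.4 and 72.8 in those labelled p75NTRko and 99.1, 108 and 89.2 in those labelled 5xFAD/p75NTRko, which were above all p75NTRko-labelled and all WT libraries. Stmn2 (456 to 597 CPM), Elavl2 (416 to 522 CPM) and Dpysl3 (55.4 to 71.0 CPM), cytoskeletal and RNA-binding proteins of young neurons, were the steadiest members, with an SD within genotypes of 0.0850 to 0.0955 on the log2 scale. Sema3c, a secreted guidance protein, was 10.9 to 22.6 CPM.

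**Figure D4:**
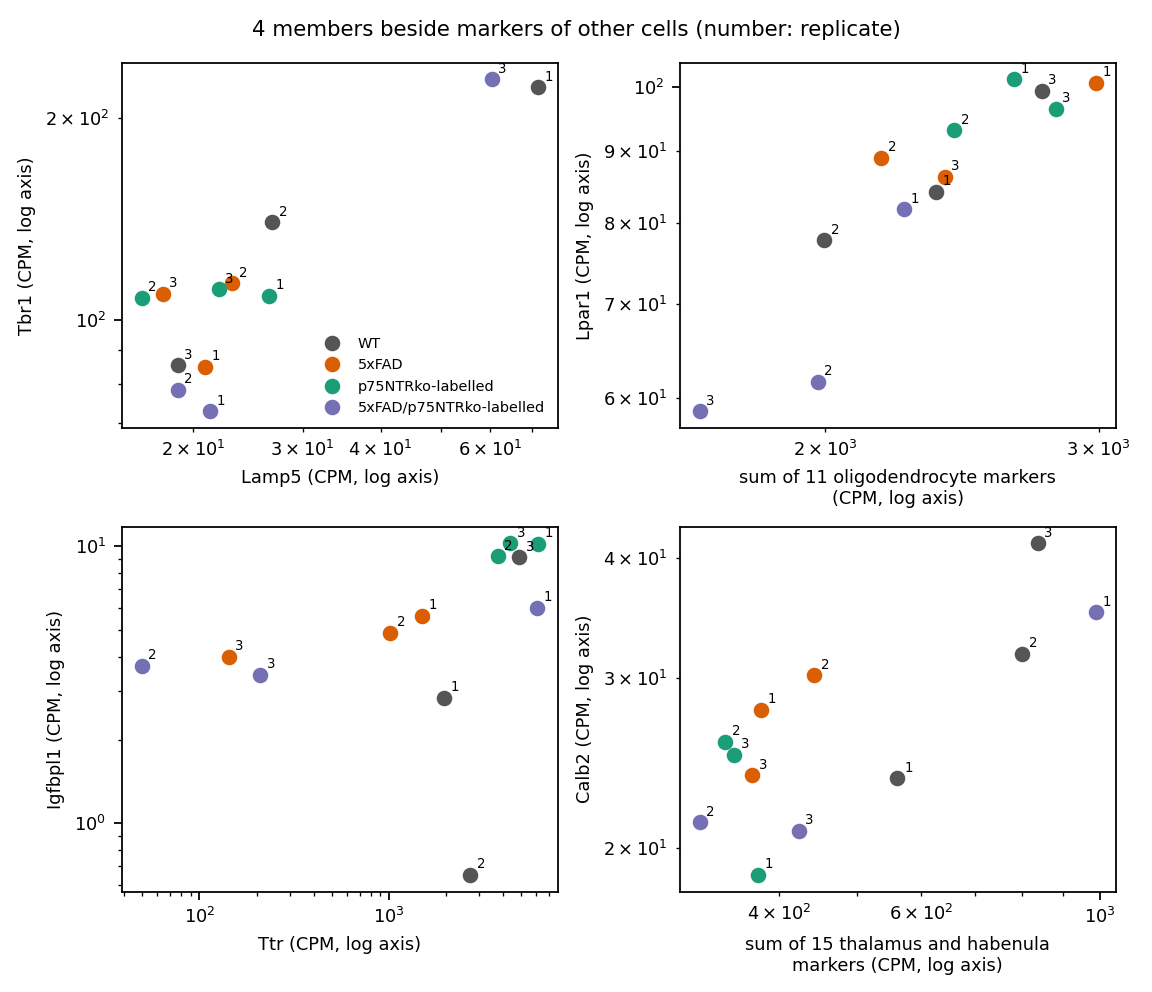
Level of 4 members beside markers of other cells in the same libraries (CPM on log axes, 1 point per library, numbered by replicate and coloured by genotype label). Both libraries high in Lamp5 are highest in Tbr1, and the 5xFAD/p75NTRko-labelled libraries lie low in Lpar1 and in the sum of oligodendrocyte markers.

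In 5xFAD against WT, which addresses the transgenes with the receptor gene labelled intact, the members with the smallest p-values were Ncam1, Hes1 and Neurod2. Their means were 795 CPM ± 47.0 against 635 ± 63.9, 39.2 ± 5.49 against 26.7 ± 6.62 and 464 ± 76.1 against 331 ± 64.8 (SD, n = 3 each). The log2 fold change was 0.32 for Ncam1 (SE 0.0947, adjusted p 0.234), 0.55 for Hes1 (SE 0.173, adjusted p 0.243) and 0.49 for Neurod2 (SE 0.162, adjusted p 0.257) by edgeR with Benjamini-Hochberg adjustment, so none passed. Libraries did not overlap for Ncam1 and Hes1 and did for Neurod2. Here and in the comparisons below, a lack of overlap was likely beforehand for members picked by small p-values. The share of all genes without overlap is not given here. No member passed the adjusted threshold, 0 of 29 by edgeR and 0 by DESeq2, where 0.0536% of all genes did by edgeR. At an unadjusted p under 0.05, 6 members were higher and 2 lower by edgeR, which is 20.7% and 6.90% of the tested members against 7.73% and 6.14% of all genes. The 6 were Hes1, Hopx, Ccnd2, Neurod2, Prox1 and Ncam1, and the 2 were Tubb3 and Stmn1. The median log2 fold change was 0.19 over the tested members and -0.0036 over all genes.

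In p75NTRko-labelled libraries against WT, the smallest p-values were those of Fabp7, Neurod2 and Hes1. Fabp7 averaged 94.4 CPM ± 18.4 against 54.8 ± 15.2, Neurod2 513 ± 18.9 against 331 ± 64.8 and Hes1 40.5 ± 6.43 against 26.7 ± 6.62 (SD, n = 3 each). Libraries did not overlap for any of the 3, which was likely for members picked by p-value. The log2 fold change was 0.78 for Fabp7 (SE 0.196, adjusted p 0.238), 0.63 for Neurod2 (SE 0.162, adjusted p 0.238) and 0.61 for Hes1 (SE 0.173, adjusted p 0.264) by edgeR with Benjamini-Hochberg adjustment. No member passed by edgeR, and 0% of all genes did. By DESeq2, 2 members passed, Fabp7 (0.79, adjusted p 0.0356) and Neurod2 (0.64, adjusted p 0.0456). The share of all genes that passed by DESeq2 is not given here, so these calls have no background to be read against. At an unadjusted p under 0.05 by edgeR, 8 members were higher (Hes1, Hopx, Fabp7, Neurod1, Neurod2, Igfbpl1, Bhlhe22 and Prox1) and 3 lower (Elavl4, Tubb3 and Stmn1), which is 27.6% and 10.3% of the tested members against 5.33% and 6.16% of all genes. The median log2 fold change was 0.06 over the tested members. Only the p75NTRko-labelled group held both Xist classes, so Xist class as a term rests on its replicate 1 against replicates 2 and 3. With that term the log2 fold change of Fabp7 was 0.46 (adjusted p 0.816, edgeR). Without WT replicate 3, Igfbpl1 had a log2 fold change of 2.47 (adjusted p 0.0359, edgeR) and Tubb3 of -0.60 (adjusted p 0.0494, edgeR), and Tubb3 also passed in 5xFAD against WT (-0.57, adjusted p 0.0487, edgeR). For the fit without that library, the share of all genes that passed is not given either.

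In 5xFAD/p75NTRko-labelled against 5xFAD libraries, which addresses the receptor label among transgene carriers, the smallest p-values were all of stem cell genes. Lpar1 averaged 67.4 CPM ± 12.6 against 92.0 ± 7.66, Hes5 80.5 ± 4.37 against 52.9 ± 9.23 and Fabp7 90.9 ± 16.8 against 62.0 ± 7.23 (SD, n = 3 each), with no overlap between libraries. The log2 fold change was -0.45 for Lpar1 (SE 0.131, adjusted p 0.645), 0.61 for Hes5 (SE 0.212, adjusted p 0.785) and 0.55 for Fabp7 (SE 0.196, adjusted p 0.797) by edgeR with Benjamini-Hochberg adjustment. No member passed by edgeR or by DESeq2 (0 in both), and 0.0383% of all genes did by edgeR. At an unadjusted p under 0.05, 3 members were higher (Hes5, Fabp7 and Dcx) and 3 lower (Sox2, Lpar1 and Ccnd2), each 10.3% of the tested members, against 1.98% and 3.1% of all genes. Beside Lpar1, all 11 oligodendrocyte markers had a negative fold change, with a median of -0.33. With the mean level of these markers as a covariate, chosen after seeing the data, Lpar1 had a log2 fold change of -0.21 (adjusted p 0.897, edgeR). The markers themselves differed between these genotypes, so that fit does not separate genotype from their level. The part of oligodendrocytes in Lpar1 was not tested. With Xist class as a term, the value was 1.49 for Hes5 (adjusted p 0.564, edgeR) and 1.01 for Fabp7 (adjusted p 0.999, edgeR). That term rests on 1 library, p75NTRko-labelled replicate 1, against replicates 2 and 3 of its group. Hes5 was 37.6 CPM there against 67.4 and 71.1, and Fabp7 75.3 against 112 and 95.9, so these values do not separate genotype from Xist class.

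In 5xFAD/p75NTRko-labelled against p75NTRko-labelled libraries, which addresses the transgenes on the receptor-labelled background, Lpar1 again had the smallest p-value, at 67.4 CPM ± 12.6 against 96.9 ± 4.06. Bhlhe22 averaged 289 CPM ± 34.0 against 396 ± 19.6 and Gap43 98.6 ± 9.21 against 65.0 ± 8.84 (SD, n = 3 each), again with no overlap. The log2 fold change was -0.52 for Lpar1 (SE 0.130, adjusted p 0.454), -0.45 for Bhlhe22 (SE 0.125, adjusted p 0.558) and 0.60 for Gap43 (SE 0.175, adjusted p 0.622) by edgeR with Benjamini-Hochberg adjustment. No member passed by edgeR or DESeq2 (0 in both), nor did any gene by edgeR (0%). At an unadjusted p under 0.05, 3 members were higher (Hes5, Dcx and Gap43) and 4 lower (Lpar1, Neurod1, Igfbpl1 and Bhlhe22), or 10.3% and 13.8% of the tested members, against 3.6% and 2.99% of all genes. The median log2 fold change was 0.08 over the tested members, 17 of 29 of them positive, and 0.01 over all genes. Lpar1 passed without 5xFAD/p75NTRko replicate 1 (-0.69, adjusted p 0.0413, edgeR) and with the mean level of thalamus and habenula markers as a covariate (-0.66, adjusted p 0.0276, edgeR). For these fits the share of all genes that passed is not given here. With oligodendrocyte markers as the covariate Lpar1 was at -0.23 (adjusted p 0.697, edgeR). The part of oligodendrocytes was not tested here either.

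In 5xFAD/p75NTRko-labelled against WT libraries, all of the same Xist class, the smallest p-values were those of Hes1, Fabp7 and Lpar1. Hes1 averaged 42.7 CPM ± 1.36 against 26.7 ± 6.62, Fabp7 90.9 ± 16.8 against 54.8 ± 15.2 and Lpar1 67.4 ± 12.6 against 87.1 ± 11.1 (SD, n = 3 each). Libraries overlapped for Lpar1 only among these 3. The log2 fold change was 0.68 for Hes1 (SE 0.172, adjusted p 0.306), 0.73 for Fabp7 (SE 0.196, adjusted p 0.343) and -0.37 for Lpar1 (SE 0.130, adjusted p 0.469) by edgeR with Benjamini-Hochberg adjustment. No member passed by edgeR or DESeq2 (0 in both), and 0% of all genes did by edgeR. At an unadjusted p under 0.05, 5 members were higher (Hes1, Fabp7, Neurod2, Ncam1 and Sema3c) and 2 lower (Lpar1 and Tubb3), or 17.2% and 6.90% of the tested members, against 5.51% and 4.44% of all genes. The median log2 fold change was 0.14 over the tested members and 0.0042 over all genes.

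The 3 comparisons with WT share its 3 libraries, so they are set side by side for Hes1, whose log2 fold change was 0.55 in 5xFAD, 0.61 in those labelled p75NTRko and 0.68 in those labelled 5xFAD/p75NTRko. Hes1 is also transcribed by endothelial cells, and the summed level of 10 endothelial and mural markers, led by Flt1, was 108 to 149.98 CPM in WT, 137 to 146 in 5xFAD, 131 to 143 in those labelled p75NTRko and 125 to 148 in those labelled 5xFAD/p75NTRko. WT replicate 2 was lowest in both, and the part of these cells in Hes1 was not tested.

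**Figure D5:**
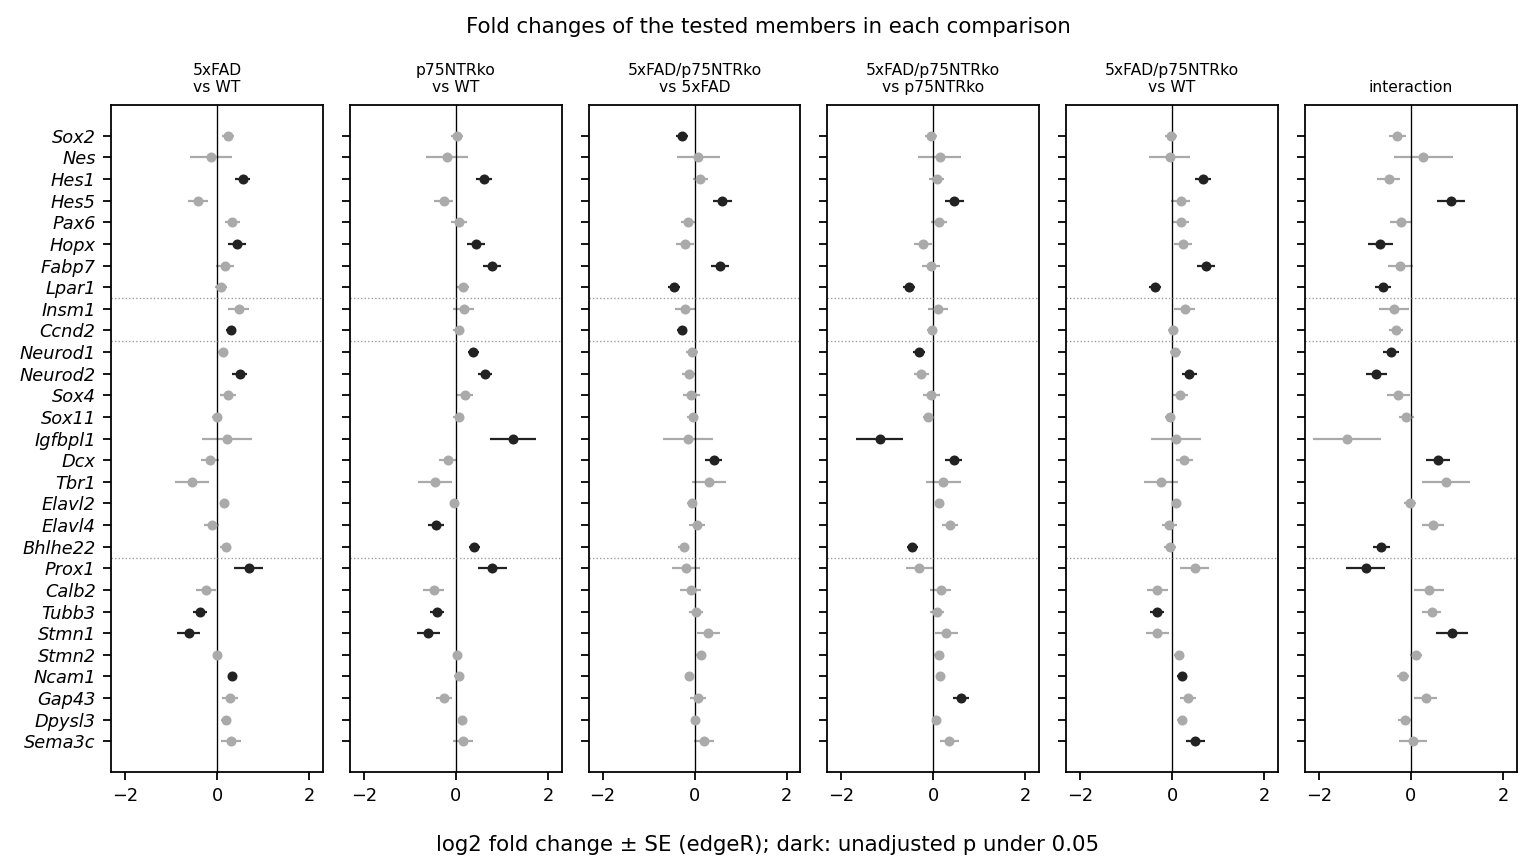
Log2 fold change of the 29 tested members in each of the 6 comparisons (points, with the SE of edgeR's fit as bars; dark points have an unadjusted p under 0.05). Hes1 lies at 0.55 to 0.68 in the comparisons with WT, Lpar1 at -0.45 and -0.52 in 5xFAD/p75NTRko against the single mutants, and no point passed the adjusted threshold.

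The interaction asked whether the receptor label went with a different change in carriers than in non-carriers. Its smallest p-values were those of Bhlhe22 (-0.64 on the log2 scale, SE 0.177, adjusted p 0.339), Lpar1 (-0.61, SE 0.183, adjusted p 0.379) and Neurod2 (-0.75, SE 0.228, adjusted p 0.379) by edgeR with Benjamini-Hochberg adjustment. Both bHLH factors were higher in each single mutant than in WT by their means. The double mutant was below both single mutants, and for Neurod2 it stayed above WT and closer to 5xFAD. Neurod2 averaged 331, 464, 513 and 427 CPM and Bhlhe22 299, 341, 396 and 289 CPM in WT, 5xFAD, p75NTRko-labelled and 5xFAD/p75NTRko-labelled libraries. No member passed by edgeR or DESeq2 (0 in both), and 0.0383% of all genes did by edgeR. At an unadjusted p under 0.05, 3 members had a positive interaction (Hes5, Dcx and Stmn1) and 6 a negative one (Hopx, Lpar1, Neurod1, Neurod2, Bhlhe22 and Prox1), or 10.3% and 20.7% of the tested members, against 5.19% and 4.13% of all genes. The median over the tested members was -0.18, with 18 of 29 negative, and over all genes it was 0.0024. With oligodendrocyte markers as a covariate the interaction of Lpar1 was -0.21 (adjusted p 0.993, edgeR), and with thalamus and habenula markers it was -0.94 (adjusted p 0.141, edgeR). The part of these cells in the interaction was not tested.

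Further genes of the pathways around these members were taken from lists chosen by role. No gene of the 4 lists passed the adjusted threshold in any comparison by edgeR. Of the Notch list (ligands, receptors, Rbpj and targets), 14 of 15 were tested, and its smallest p-value in each comparison with WT was that of Lfng, the glycosyltransferase that tunes Notch to its ligands. Lfng was 35.1, 42.0 and 38.0 CPM in WT, 31.2, 23.1 and 32.6 in 5xFAD, 36.3, 28.7 and 26.9 in those labelled p75NTRko and 26.1, 27.9 and 23.8 in those labelled 5xFAD/p75NTRko, with a log2 fold change of -0.57 in the last against WT (SE 0.153, adjusted p 0.353, edgeR). Notch genes with an unadjusted p under 0.05 numbered 1 higher and 2 lower in 5xFAD against WT, or 7.14% and 14.3% of the 14 against 7.73% and 6.14% of all genes. They numbered 0 and 1 where 5xFAD/p75NTRko was compared with WT (0% and 7.14% against 5.51% and 4.44% of all genes). In the other 4 comparisons they numbered 0, and the smallest p-values were those of Lfng, Maml1, Numb and Hey1.

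Of the niche and quiescence list (BMP and hedgehog signalling, Id and Nfi factors), 17 of 20 were tested. Gli1, the hedgehog target that marks responding stem cells and some astrocytes, was 3.89, 10.2 and 8.13 CPM in WT, 1.87, 3.005 and 1.68 in 5xFAD, 2.60, 3.91 and 4.31 in those labelled p75NTRko and 4.83, 3.12 and 5.90 in those labelled 5xFAD/p75NTRko. On the log2 scale it was -1.74 in 5xFAD against WT (SE 0.396, adjusted p 0.128, edgeR), 1.08 in 5xFAD/p75NTRko against 5xFAD (SE 0.414, adjusted p 0.878, edgeR) and 2.10 for the interaction (SE 0.554, adjusted p 0.331, edgeR), and it did not pass. All 5xFAD libraries were below all WT libraries. The smallest p-value of this list was that of the receptor gene Fgfr1 where p75NTRko was compared with WT (0.48, SE 0.157, adjusted p 0.337, edgeR). It was that of Vcam1, an adhesion molecule of quiescent stem cells and vessels, in 5xFAD/p75NTRko against p75NTRko (-0.43, SE 0.140, adjusted p 0.695, edgeR) and in the same libraries against WT (-0.47, SE 0.139, adjusted p 0.405, edgeR). Genes of this list with an unadjusted p under 0.05 numbered 4 higher and 3 lower in 5xFAD against WT, which is 23.5% and 17.6% of the 17 against 7.73% and 6.14% of all genes. Their median log2 fold change there was 0.02. In p75NTRko against WT, 3 were higher and 2 lower (17.6% and 11.8% against 5.33% and 6.16%). For 5xFAD/p75NTRko against 5xFAD it was 3 and 1 (17.6% and 5.88% against 1.98% and 3.1%). Against p75NTRko it was 1 and 2 (5.88% and 11.8% against 3.6% and 2.99%), and against WT 2 and 2 (11.8% each against 5.51% and 4.44%). The interaction had 2 positive and 3 negative (11.8% and 17.6% against 5.19% and 4.13%).

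Of 17 further progenitor and immature neuron genes, 16 were tested. None had an unadjusted p under 0.05 in 5xFAD against WT, 5xFAD/p75NTRko against 5xFAD or the interaction (0 in each by edgeR). Of all genes, 7.73%, 1.98% and 5.19% were higher there and 6.14%, 3.1% and 4.13% lower, in order. In p75NTRko against WT and 5xFAD/p75NTRko against WT, 1 was higher in each (6.25% against 5.33% and 5.51% of all genes). In 5xFAD/p75NTRko against p75NTRko, 1 was lower (6.25% against 2.99%). The genes with the smallest p-values were Nrep in 5xFAD against WT (-0.50, SE 0.255, adjusted p 0.392, edgeR), Fezf2 in the other 2 comparisons with WT (0.35, adjusted p 0.422, and 0.37, adjusted p 0.485, edgeR), Cd24a in 5xFAD/p75NTRko against p75NTRko (-0.65, adjusted p 0.713, edgeR) and Tubb2b in both 5xFAD/p75NTRko against 5xFAD (log2 fold change -0.23, adjusted p 0.988, edgeR) and the interaction (-0.43, adjusted p 0.552, edgeR). Nrep, a protein of young and regenerating neurons, was 203, 171 and 125 CPM in WT and 116, 97.1 and 234 in 5xFAD/p75NTRko-labelled libraries, against 108 to 166 CPM in the single mutants. Its highest libraries were WT replicate 1 and 5xFAD/p75NTRko replicate 3, the pair that is also highest in Tbr1 and Lamp5.

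Without that pair of libraries, left out after seeing the data, 0 members passed in the 6 comparisons by edgeR. The log2 fold change of Hes1 was then 0.57 in 5xFAD, 0.62 in those labelled p75NTRko and 0.72 in those labelled 5xFAD/p75NTRko against WT, and Lpar1 was at -0.43 in 5xFAD/p75NTRko against p75NTRko. The interaction of Neurod2 was -0.57 and that of Bhlhe22 -0.46. No named fold change reversed under any alternative tried, which was likely beforehand because they were picked for small p-values in the same libraries.

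Counting could merge or split some members. In the GENCODE annotation of GRCm38, 9 of the 33 members overlap another gene of the table, 4 of them on the opposite strand (Ccnd2, Draxin, Ncam1 and Pax6), and whether strand was used in counting is not given in the sources used here. Sox2 lies within Sox2ot and Neurod1 overlaps Cerkl on the same strand. These members' values are less certain for that reason.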

How the data were processed

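Hippocampal RNA in 12 libraries, 3 for each of 4 genotypes, was sequenced from 3′ ends. Per the labels' protocols, QuantSeq FWD libraries were amplified for 14 cycles from Trizol-extracted RNA whose integrity number exceeded 7. The submitters' processing notes name FastQC, HISAT2, SAMtools, HTSeq, edgeR and the build mm10. Tool versions, the gene annotation and whether strand was used are not given in the sources used here. The deposited table holds raw read counts per gene symbol, 1 column per library, not normalized by the authors. Its 5 summary lines, which name no gene, were left out, and 32.2% to 38.5% of reads were assigned to genes. Columns of other samples numbered 0.

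The analysis used edgeR 4.0.16 in R 4.3.3: filterByExpr by genotype, TMM scaling (factors 0.975 to 1.03) and a quasi-likelihood fit of a mean per genotype to all 12 libraries, with p-values adjusted by Benjamini-Hochberg over 13065 genes (threshold 0.05). CPM used TMM-scaled sizes of the filtered genes. Reads were amplified and carry no molecular identifiers in the table, so they are not independent molecules and the limit of 3 counts covers counting error only. The interaction was 5xFAD/p75NTRko minus 5xFAD minus p75NTRko plus WT.

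The members and lists were chosen with earlier results of these data known. Named per library were Sox2, Nes, Hes5, Eomes, Neurod1, Dcx, Sox11, Igfbpl1, Prox1, Calb2, Bhlhe22 and the 3 members with the smallest unadjusted p of each comparison, which also have a fold change, and pathway genes with the smallest p of their list. Markers of other cells were given as sums, without 1 marker of the oligodendrocyte list that is not reported here. The alternatives tried were a fit by DESeq2 1.42.0, RLE scaling, testing without the filter, only the compared genotypes, a replicate block, Xist class as a term (limit of 50 CPM), a thalamus and habenula covariate and leaving out each library. An oligodendrocyte covariate, and leaving out both libraries with Lamp5 over 50 CPM, were added after seeing the data. Replicate numbers did not pair the libraries. Promoters were read from the RefSeq table of GRCm38.p6.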

Additional observations from a re-analysis of the deposited data

How the results depend on the processing

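The count of members past the adjusted threshold was 0 in each of the 6 comparisons by edgeR. It became 2 in p75NTRko-labelled libraries against WT by DESeq2 and 1 in 5xFAD/p75NTRko against p75NTRko with the thalamus and habenula covariate. Leaving out a library gave 0 to 1 in 5xFAD against WT, 0 to 2 in p75NTRko against WT and 0 to 1 in 5xFAD/p75NTRko against p75NTRko. Both higher values in the comparisons with WT came without WT replicate 3, and the last came without 5xFAD/p75NTRko replicate 1. The share of all genes that passed under these alternatives is not given here. The count at an unadjusted p under 0.05 was 8, 11, 6, 7, 7 and 9, in order, for the 2 single mutants (5xFAD, then p75NTRko) compared with WT, for 5xFAD/p75NTRko compared with 5xFAD, with p75NTRko and with WT, and for the interaction. Xist class as a term rests on p75NTRko-labelled replicate 1 against replicates 2 and 3. With that term the count was 1 in 5xFAD against WT, 3 in p75NTRko against WT, 3 in 5xFAD/p75NTRko against 5xFAD, 3 against p75NTRko and 1 in the interaction. With the oligodendrocyte covariate it was 5, 6, 2, 5 and 5 in the same 5 comparisons. In 5xFAD/p75NTRko against WT it was 3 with only the compared genotypes and 4 with the thalamus and habenula covariate. Without both libraries high in Lamp5 it was 5 in the interaction. Leaving out a library gave 4 to 13 in 5xFAD against WT, 7 to 11 in p75NTRko against WT, 3 to 6 in 5xFAD/p75NTRko against 5xFAD, 4 to 8 against p75NTRko, 3 to 10 against WT and 4 to 14 in the interaction, with 13 and 14 both reached without WT replicate 3. The cause was not tested. The share of all genes at an unadjusted p under 0.05 is not given for any alternative. These counts therefore have no background to be read against. With the replicate block, the count was 8, 10, 4, 6, 7 and 8, and 0 members passed the adjusted threshold. Deviations of libraries with the same number correlated at -0.42 to 0.14 over 18 pairs, with 2 over 0.1, so the numbers did not pair the libraries. The 18 named fold changes kept their direction in 285 of 285 alternatives, 4 of which took them past the threshold. They were picked for small p-values in the same libraries, so a kept direction was likely beforehand and does not count as support. With the limit at 3 counts, Eomes, Neurog2, Tfap2c and Draxin lay near it. Whether depth or the assignment of reads to genes kept them low was not tested.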

Other observations

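Genes of mature granule neurons, the cells that this lineage produces, were measured beside it. All 10 of the list passed the filter, and 0 passed the adjusted threshold in any comparison by edgeR. In the interaction, 9 of 10 had a negative value, with a median of -0.36 against 0.0024 over all genes, and at an unadjusted p under 0.05, 1 was positive and 3 negative, or 10% and 30% of the list against 5.19% and 4.13% of all genes. For p75NTRko against WT, 4 were higher and 2 lower at that limit, or 40% and 20% against 5.33% and 6.16% of all genes. The smallest p-value in the interaction was that of C1ql2, a secreted synaptic protein of mossy fibres, at -0.90 (SE 0.338, adjusted p 0.473, edgeR). C1ql2 was 29.6, 44.5 and 68.7 CPM in WT, 55.4, 65.9 and 61.2 in 5xFAD, 70.4, 98.6 and 73.0 in those labelled p75NTRko and 63.6, 59.6 and 42.0 in those labelled 5xFAD/p75NTRko, so that the p75NTRko-labelled libraries were above all others.

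Stxbp6, a syntaxin-binding protein, was 119, 94.5 and 131 CPM in WT, 123, 119 and 117 in 5xFAD, 142, 151 and 153 in libraries labelled p75NTRko and 118, 117 and 119 in those labelled 5xFAD/p75NTRko. For p75NTRko against WT the log2 fold change was 0.38 (SE 0.104, adjusted p 0.263, edgeR) and -0.33 in 5xFAD/p75NTRko against p75NTRko (SE 0.105, adjusted p 0.673, edgeR). Klf9, a transcription factor of maturing granule neurons, was 507, 467 and 464 CPM in 5xFAD/p75NTRko-labelled libraries against 551, 606 and 559 in WT and 562, 561 and 594 in 5xFAD. It was 534, 495 and 490.3 CPM in libraries labelled p75NTRko, which were also below all WT and all 5xFAD libraries. In 5xFAD/p75NTRko the log2 fold change of Klf9 was -0.26 against both WT and 5xFAD (adjusted p 0.432 and 0.692, edgeR). Calb1, the calbindin of mature granule neurons, was 137, 162 and 145 CPM in 5xFAD against 171, 191 and 166 in WT, and its log2 fold change was -0.25, with an SE of 0.0973 and an adjusted p of 0.304 by edgeR. It was 144, 146 and 158 CPM in libraries labelled p75NTRko, also below all WT libraries, and 152, 174 and 149.8 CPM in those labelled 5xFAD/p75NTRko, which overlapped WT.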
